A study of Caenorhabditis elegans with 9 samples.

Results

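Whole Caenorhabditis elegans kept under a high-fat condition with and without farrerol, a flavanone from Rhododendron plants, were compared by RNA sequencing in 6 libraries. The FA group received farrerol on top of the high-fat condition (3 libraries), and the HFD group was kept under the high-fat condition alone (3 libraries). The high-fat condition, induced with citrate per the series title, is shared by both groups. The strain, the age of the animals, the doses, the duration of treatment and whether each library had its own culture are not stated in the labels. The p-values below therefore rest on library-to-library spread that may be technical. The genes described are the named protein-coding genes with at least 1 FPKM (fragments per kilobase of a gene, scaled by library) in at least 3 of the 6 libraries. They are 13567 of 19997 named protein-coding genes, and the deposited table holds 46986 genes of every kind. The question of the comparison, per the series title, is whether farrerol acts on fat storage through DAF-16.

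Fat in this animal is stored in the intestine and the skin-like hypodermis, as triglyceride in lipid droplets. Insulin-like peptides act on the receptor DAF-2, and a kinase cascade below it keeps the forkhead transcription factor DAF-16 out of the nucleus. DAF-16 is thus regulated mainly by its location in the cell, and its activity is commonly read from its target genes rather than from the level of its own transcript. Much of the fat that a reproducing hermaphrodite makes leaves the intestine as yolk, carried by vitellogenins to the growing oocytes. In whole animals, fewer cells of a type and less RNA per cell cannot be told apart.

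No protein-coding gene passed the test between FA and HFD. Of the 13567 genes 0 (0.0%) had an adjusted p under 0.05 in limma, and none had one below 0.9999. Before adjustment, 63 genes had a limma p under 0.05 and were higher in FA (0.464% of those tested), and 171 were lower (1.26%). limma's voom on the recovered reads called 0 genes with 258 at an unadjusted p under 0.05. The 3 FA libraries lay above all 3 HFD libraries in 235 genes (1.73%) and below them in 437 (3.22%).

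The differences were small as well as uncalled. The median log2 difference (FA minus HFD, on the log2(FPKM + 1) scale, which understates the change of weakly expressed genes) was -0.01, and the quartiles lay at -0.10 and 0.09. The limma 95% interval of the difference extended a median of 0.43 to each side, and for 12660 genes (93.3%) it lay wholly within a 2-fold difference in either direction. A log2 difference of 1 or more was seen in 5 genes higher in FA and in 1 gene lower. Among the most strongly expressed genes, eef-1A.1, a translation elongation factor, averaged 7415 ± 2031 FPKM in FA and 7639 ± 674 FPKM in HFD (SD, n = 3 each). The lipid-binding protein gene far-2 averaged 5732 ± 1185 FPKM in FA and 5649 ± 743 FPKM in HFD.

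**Figure D1:**
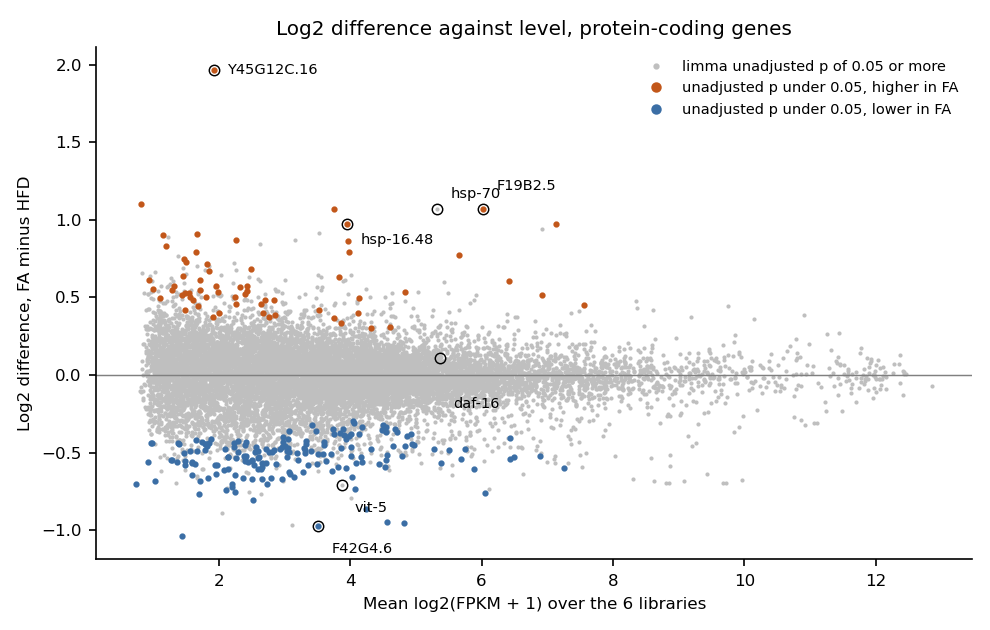
Log2 difference (FA minus HFD) against the mean log2(FPKM + 1) of the 6 libraries for each protein-coding gene tested (points), with genes at an unadjusted limma p under 0.05 in colour and 7 genes named. The points scatter about 0, Y45G12C.16 stands alone at 1.96, and 0 genes passed an adjusted p of 0.05.

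The spread within the groups was larger than the difference between them. Between FA and HFD lay 13.3% of the sum of squares over the genes, for 1 of 5 degrees of freedom. The first principal component (33.7% of the variance) set FA replicate 1 at -23.1 and HFD replicate 1 at -21.6 against FA replicate 3 at 28.03, with the other libraries between 3.21 and 7.33. The second (25.4%) set FA replicate 2 apart at -32.2, against 16.7 for FA replicate 3. The most alike pair of all 6 libraries was FA replicate 1 with HFD replicate 1, with a Pearson r of 0.991 across genes. The SD of log2 values had a median of 0.23 in FA and 0.18 in HFD, and it was larger in FA for 61.2% of the genes. Depth was 17514542 to 20373021 reads on genes. The FPKM of the genes tested summed to 944300, 1069000 and 735000 in FA, against 963700, 905400 and 864000 in HFD. The median gene deviated from its mean over the libraries by only -0.02 to 0.02 on the log2 scale in each library. Counts of the highest and lowest library below use FPKM as deposited, without scaling to equal sums.

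Several sets of genes separated the libraries, and examples chosen after their values were seen are yolk, collagen and cytochrome P450 genes. The 6 vitellogenin genes were highest in HFD replicate 1, with FA replicate 1 next to it. The yolk gene vit-2 (WBGene00006926, chromosome X, 5101042 to 5106169) had 114, 15.1 and 29.3 FPKM in FA, against 139, 30.4 and 41.5 FPKM in HFD. The adult collagen col-119 had 45.3, 14.4 and 9.68 FPKM in FA, against 58.0, 11.9 and 15.7 FPKM in HFD. Both genes were thus high in the library numbered 1 of each group. A second set, of other collagens and cuticle genes, was high in FA replicate 2 and HFD replicate 3. Of these col-2 had 8.26, 80.8 and 5.08 FPKM in FA, against 5.01, 9.07 and 35.9 FPKM in HFD, and grl-20, a hedgehog-related gene, had 6.57, 54.4 and 5.14 FPKM in FA, against 3.21, 6.27 and 24.8 FPKM in HFD. A further set was high in FA replicate 3 and HFD replicate 2, such as the cytochrome P450 gene cyp-13B1 with 25.1, 81.3 and 244 FPKM in FA, against 32.1, 259 and 78.4 FPKM in HFD. In each of these sets the groups overlapped.

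**Figure D2:**
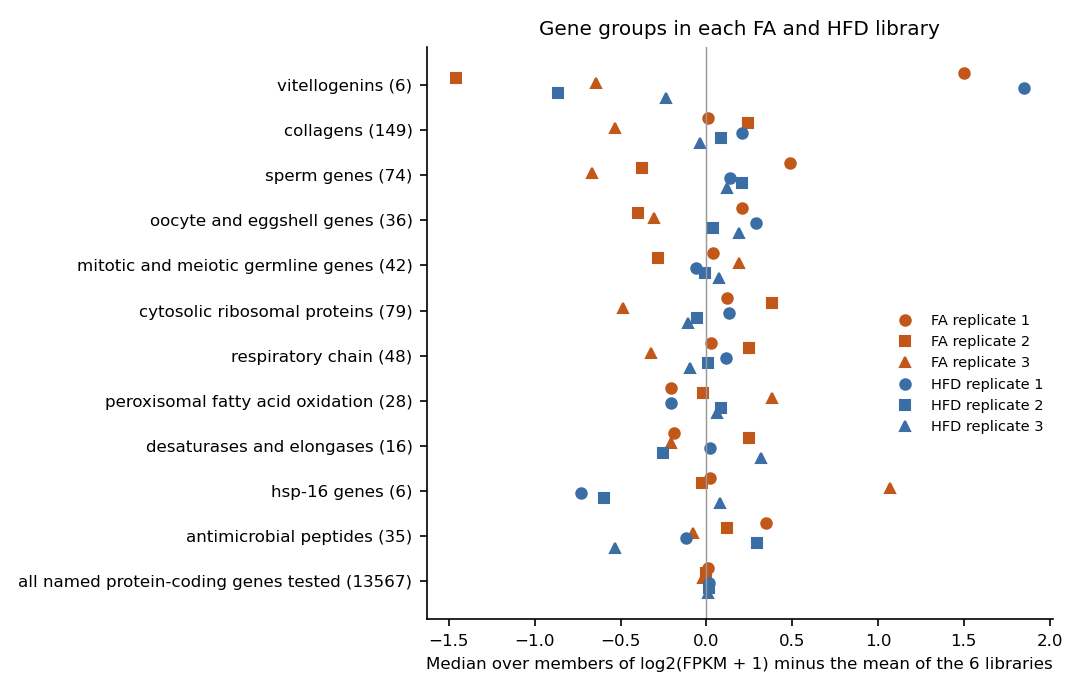
Median over the members of each gene group of log2(FPKM + 1) minus the mean of the 6 libraries, for each FA and HFD library (points), with the number of members tested in brackets. Vitellogenins are high in replicate 1 of both groups (1.5 and 1.85), sperm genes are low in FA replicates 2 and 3 (-0.38 and -0.66), and the hsp-16 genes are highest in FA replicate 3 (1.07).

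Insulin-like signalling showed no detectable difference at the RNA level. The daf-16 transcript (WBGene00000912, chromosome I, 10750498 to 10776703) stood at 41.8, 42.8 and 41.5 FPKM in FA, against 39.6, 34.7 and 42.7 FPKM in HFD. The groups overlapped, the log2 difference was 0.11, and its 95% interval (-0.18 to 0.40) lay within a 2-fold difference either way. The receptor gene daf-2 had 6.10, 5.58 and 8.41 FPKM in FA, against 5.26, 5.29 and 7.92 FPKM in HFD. Replicate 3 was the highest library of each group. The kinase gene sgk-1 averaged 17.4 ± 1.65 FPKM in FA and 15.3 ± 3.24 FPKM in HFD. The 21 genes of the pathway between receptor and DAF-16 that were listed had a median log2 difference of 0.05. All 21 intervals lay within a 2-fold difference, as did those of 93.3% of all genes tested.

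Among 25 insulin-like peptide genes, 9 averaged higher and 16 lower in FA, with a median of -0.01. At an unadjusted limma p under 0.05 there were 2, both lower in FA (1.26% of all genes tested were lower at that p). The first, ins-37 (chromosome II, 13835101 to 13836107), had 5.11, 3.42 and 3.59 FPKM in FA, against 5.62, 7.21 and 8.25 FPKM in HFD, with no overlap (log2 difference -0.67, 95% interval -1.13 to -0.22). Its position overlaps F08G2.9 on the same strand, so its reads are less certain. The second, ins-23, had 0.731, 0.574 and 0.773 FPKM in FA, against 1.37, 1.42 and 1.10 FPKM in HFD. It was under 1 FPKM in every FA library and passed the filter through the HFD libraries alone, so that its separation follows from the filter and its values are a description.

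Genes that active DAF-16 is described to raise averaged higher in FA more often than lower, though none passed. Of 27 tested, 20 were higher and 7 lower, with a median log2 difference of 0.23 against -0.01 over all genes, and 3 were higher at an unadjusted limma p under 0.05 (0.464% of all genes tested were). The superoxide dismutase gene sod-3 (WBGene00004932, chromosome X, 17092753 to 17094306), a standard reporter of DAF-16 activity, had 6.58, 7.67 and 10.5 FPKM in FA, against 6.10, 7.93 and 6.43 FPKM in HFD (log2 difference 0.23, 95% interval -0.22 to 0.67). The groups overlapped through HFD replicate 2. The metallothionein gene mtl-1 (chromosome V, 6691371 to 6691863) had 18.9, 29.1 and 13.7 FPKM in FA, against 7.68, 9.23 and 18.3 FPKM in HFD. Its log2 difference was 0.79, and HFD replicate 3 lay within the FA range. Small heat shock genes make up part of this list, and hsp-16.48 and hsp-16.2 are 2 of the 3 under an unadjusted limma p of 0.05. The lowest library was HFD replicate 1 in 13 of the 27 genes and HFD replicate 2 in 8. Counted without heat shock genes, a division made after the values were seen, 12 of 17 averaged higher and the median was 0.16. It was 0.02 to 0.19 over the alternatives. Of the 17, 1 (mtl-1) was higher at an unadjusted limma p under 0.05. Of 9 genes described as lowered by DAF-16, 7 averaged lower in FA, with a median of -0.19. Its sign turned in at least 1 alternative (highest 0.05). The infection-response gene dod-24 had 109, 247 and 152 FPKM in FA, against 176, 205 and 324 FPKM in HFD.

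**Figure D3:**
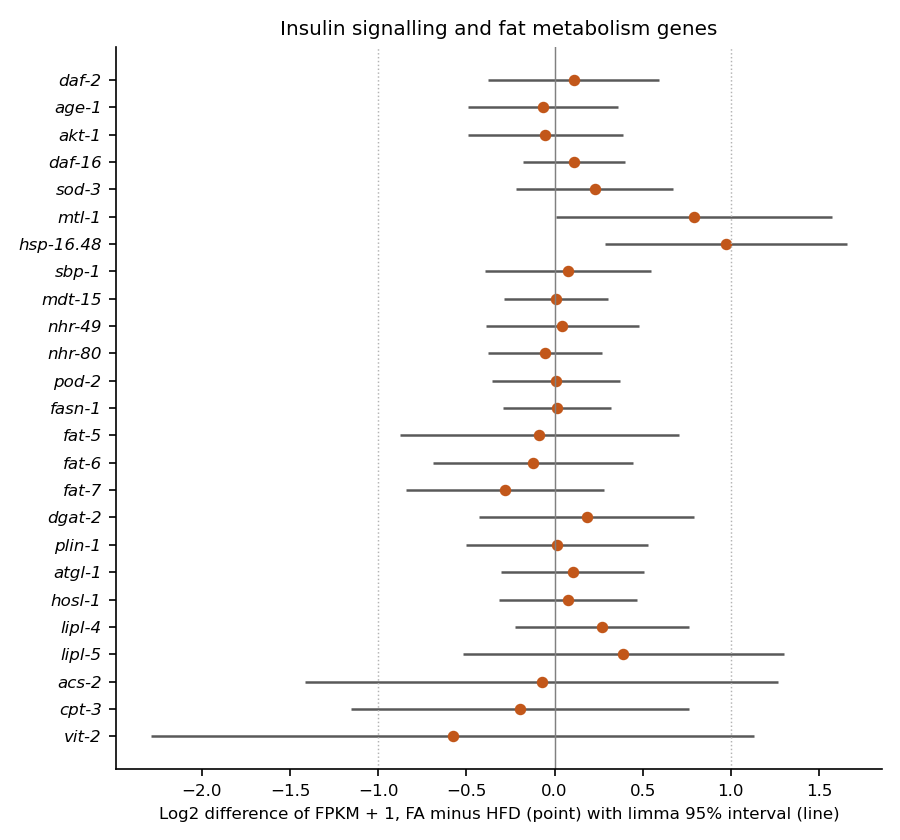
Log2 difference of FPKM + 1 (FA minus HFD; points) with limma 95% intervals (lines) for 25 genes of insulin signalling, its targets and fat metabolism, with dotted lines at a 2-fold difference. Most intervals cross 0 and stay within 2-fold. Before any adjustment those of mtl-1 (0.01 to 1.57) and hsp-16.48 (0.28 to 1.66) lie above 0 and reach past 2-fold. Those of acs-2 and vit-2 are the widest.

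Regulators and enzymes of fat synthesis differed by less than the spread between libraries. SBP-1, the worm SREBP, had a transcript level of 10.4, 10.7 and 7.72 FPKM in FA, against 10.3, 6.71 and 10.4 FPKM in HFD, a log2 difference of 0.08 (95% interval -0.39 to 0.55). Its Mediator partner gene mdt-15 averaged 35.01 ± 0.728 FPKM in FA and 34.9 ± 3.88 FPKM in HFD. The nuclear receptor genes nhr-49 and nhr-80, activators of desaturases and fat oxidation, differed by 0.04 and -0.05 on the log2 scale. Of 19 regulators 12 averaged higher and 7 lower in FA, with a median of 0.06. All 19 intervals lay within a 2-fold difference, as did those of 93.3% of all genes tested. The acetyl-CoA carboxylase gene pod-2 averaged 53.9 ± 6.26 FPKM in FA and 53.8 ± 8.42 FPKM in HFD, and the fatty acid synthase gene fasn-1 averaged 55.8 ± 5.87 FPKM in FA and 55.2 ± 4.21 FPKM in HFD. The 8 genes of fatty acid synthesis had a median of 0.01, each with an interval within 2-fold.

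The desaturase genes followed the libraries rather than the groups. In all 7 of them, fat-1 to fat-7, the highest values were those of FA replicate 2 and HFD replicate 3. The palmitoyl-CoA desaturase gene fat-5 (chromosome V, 17725004 to 17726818) had 211, 394 and 290 FPKM in FA, against 220, 254 and 514 FPKM in HFD. The stearoyl-CoA desaturase gene fat-6 had 174, 217 and 195 FPKM in FA, against 165, 182 and 316 FPKM in HFD. Its near copy fat-7 had 8.97, 16.3 and 13.3 FPKM in FA, against 14.4, 12.4 and 20.5 FPKM in HFD. Their log2 differences of -0.09, -0.12 and -0.28 had intervals that cross 0, and those of fat-5 and fat-6 became 0.29 and 0.17 without HFD replicate 3. The median over 16 desaturases and elongases was -0.06.

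Genes that store and release triglyceride overlapped between the groups in most cases. The acyltransferase gene dgat-2 had 55.1, 74.8 and 46.0 FPKM in FA, against 58.5, 33.9 and 64.8 FPKM in HFD, and the perilipin gene plin-1 had 126, 201 and 184 FPKM in FA, against 136, 159 and 208 FPKM in HFD. For both genes the groups overlapped. The seipin gene seip-1 (chromosome V, 6051377 to 6053238), which acts in droplet formation, was the 1 of 13 storage genes without overlap (FA lay wholly above HFD in 1.73% of all genes tested and wholly below in 3.22%), with 21.9, 22.6 and 20.2 FPKM in FA, against 18.5, 18.6 and 18.8 FPKM in HFD (log2 difference 0.20, 95% interval -0.07 to 0.47). Of 18 lipase genes 12 averaged higher and 6 lower in FA, with a median of 0.07 and 0 at an unadjusted limma p under 0.05. The triglyceride lipase gene atgl-1 averaged 13.7 ± 2.33 FPKM in FA and 12.6 ± 2.13 FPKM in HFD, and hosl-1, the hormone-sensitive lipase, 6.21 ± 0.629 FPKM in FA and 5.87 ± 1.02 FPKM in HFD. The lysosomal lipase gene lipl-4 had 2.08, 2.80 and 2.31 FPKM in FA, against 1.37, 1.59 and 2.59 FPKM in HFD, and lipl-5 had 33.8, 16.52 and 16.3 FPKM in FA, against 27.1, 15.8 and 8.90 FPKM in HFD. Both averaged higher in FA by less than the spread between libraries.

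Fatty acid oxidation divided the libraries too. The peroxisomal oxidase gene acox-1.1 had 94.7, 162 and 255 FPKM in FA, against 118, 227 and 176 FPKM in HFD, and the peroxisomal thiolase gene daf-22 had 319, 524 and 554 FPKM in FA, against 326, 679 and 501 FPKM in HFD. In both genes replicate 1 was the lowest library of each group. Of 28 peroxisomal genes 20 averaged higher in FA, with a median of 0.07, but 18 of the 28 were highest in FA replicate 3 and the median was -0.10 to 0.20 over the alternatives. The peroxisomal ABC transporter gene pmp-4 (chromosome IV, 17402455 to 17405630) had 17.3, 13.3 and 15.5 FPKM in FA, against 12.6, 11.8 and 11.5 FPKM in HFD, with no overlap (log2 difference 0.33, 95% interval 0.01 to 0.66). Of 33 mitochondrial genes 13 averaged higher and 20 lower, with a median of -0.03. The acyl-CoA dehydrogenase gene acdh-8 had 21.7, 12.1 and 15.2 FPKM in FA, against 20.6, 23.5 and 23.5 FPKM in HFD. FA replicate 1 was at the HFD level. The carnitine palmitoyltransferase gene cpt-3 had 137, 352 and 172 FPKM in FA, against 171, 178 and 406 FPKM in HFD, and the acyl-CoA synthetase gene acs-2 had 18.1, 103 and 25.6 FPKM in FA, against 25.3, 36.2 and 61.4 FPKM in HFD. Both genes again peaked in FA replicate 2 and HFD replicate 3. Another acyl-CoA synthetase gene, acs-10, did not overlap, with 15.7, 11.9 and 10.9 FPKM in FA, against 15.9, 17.8 and 20.2 FPKM in HFD (log2 difference -0.46, 95% interval -0.85 to -0.07).

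Over the 14 lists of lipid metabolism together, 248 genes were tested, with 129 higher and 119 lower in FA and a median of 0.00. At an unadjusted limma p under 0.05, 1 was higher and 4 were lower (0.464% and 1.26% of all genes tested were). The interval lay within a 2-fold difference for 223 of the 248, and for 93.3% of all genes tested. Genes of the citrate cycle, the glyoxylate cycle and citrate transport, which handle the compound used to induce the high-fat condition, had a median of 0.00, and all 27 had intervals within 2-fold. The citrate transporter homologue nac-3 averaged 18.6 ± 4.0 FPKM in FA and 15.9 ± 1.54 FPKM in HFD.

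Some inducible heat shock genes averaged higher in FA. All 6 hsp-16 genes, which encode small chaperones, did so, with a median log2 difference of 0.79 (0.41 to 1.04 over the alternatives), and all 6 were highest in FA replicate 3. They were set apart from the other heat shock genes after the values were seen. Of the 6, 2 were higher at an unadjusted limma p under 0.05 (0.464% of all genes tested were). FA lay wholly above HFD in 1 of the 6 (1.73% of all genes tested). The hsp-16.48 gene (WBGene00002019, chromosome V, 9088131 to 9088617) had 16.8, 16.3 and 32.1 FPKM in FA, against 7.60, 9.14 and 14.4 FPKM in HFD. The groups did not overlap, and the log2 difference was 0.97 (95% interval 0.28 to 1.66). The hsp-16.2 gene (chromosome V, 1804334 to 1804957) had 133, 154 and 365 FPKM in FA, against 80.2, 77.8 and 158 FPKM in HFD. Here HFD replicate 3 lay above FA replicates 1 and 2. The hsp-16 genes come in near-identical pairs, so counting could split their reads and each single value is uncertain.

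Inducible genes of the Hsp70 family were also highest in replicate 3 of each group. The hsp-70 gene (chromosome I, 9320325 to 9322519) had 42.1, 26.8 and 161 FPKM in FA, against 23.3, 17.9 and 44.9 FPKM in HFD, and F44E5.5 (chromosome II, 11759662 to 11761861) had 15.8, 9.30 and 41.8 FPKM in FA, against 7.79, 6.54 and 11.02 FPKM in HFD. The co-chaperone gene dnj-13 (chromosome II, 11545701 to 11547360) had 212, 206 and 243 FPKM in FA, against 177, 132 and 176 FPKM in HFD, with no overlap (log2 difference 0.45, 95% interval 0.07 to 0.84). The heat shock factor gene hsf-1 averaged higher by 0.08 on the log2 scale, with overlap. Over all 48 heat shock genes tested, 30 averaged higher and 18 lower, with a median of 0.06. In 4 of the 48 FA lay wholly above HFD (1.73% of all genes tested), and in 0 wholly below. Of the 29 J-domain chaperone genes among the 48, 14 averaged higher and 15 lower, with a median of -0.003. That division was also made after the values were seen. The endoplasmic reticulum chaperone gene hsp-4, which marks the unfolded protein response, had 177, 135 and 277 FPKM in FA, against 134, 128 and 167 FPKM in HFD, again highest in replicate 3 of each group.

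**Figure D4:**
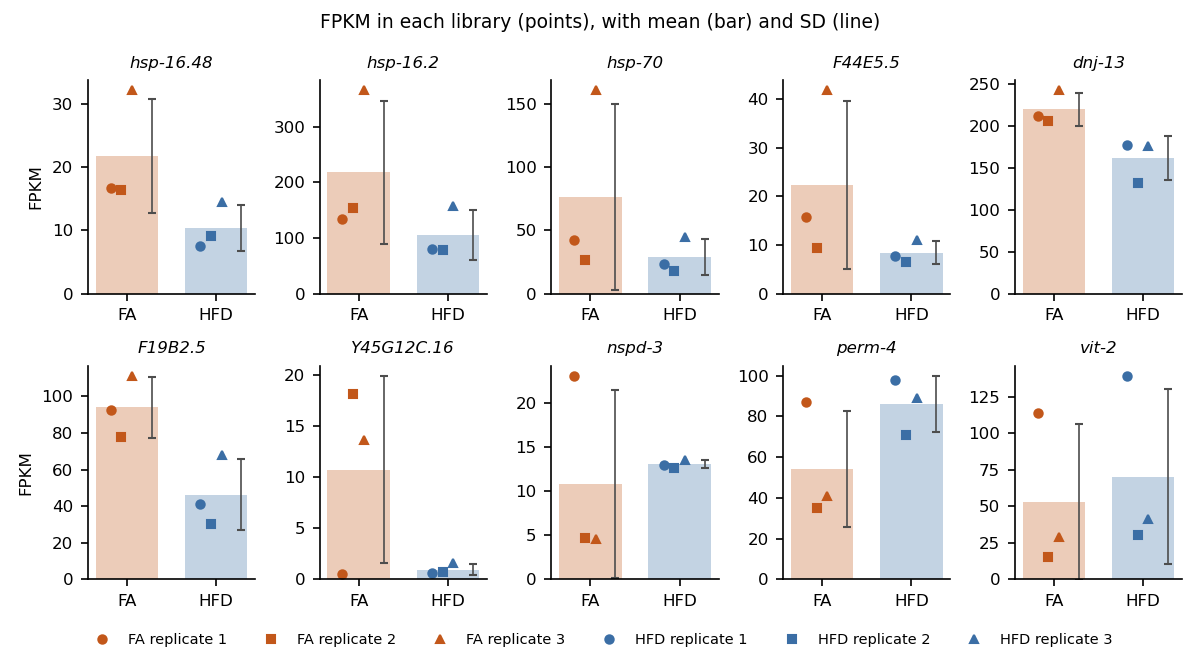
FPKM of 10 genes in each FA and HFD library (points), with the mean (bar) and SD (line; cut at 0). The heat shock genes are highest in FA replicate 3, Y45G12C.16 is high in FA replicates 2 and 3 only, and nspd-3 and perm-4 are low in FA replicates 2 and 3 while FA replicate 1 is at or above the HFD level.

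The 10 genes with the lowest p among those higher in FA, with a mean of at least 5 FPKM, were led by F19B2.5 (chromosome V, 20162615 to 20164165), a gene with an SNF2-type helicase annotation. It had 92.7, 78.1 and 111 FPKM in FA, against 41.0, 30.2 and 67.8 FPKM in HFD, and its log2 difference of 1.07 (95% interval 0.43 to 1.70) came with no overlap. The bZIP transcription factor gene zip-10 (chromosome V, 11650079 to 11650762) had 20.6, 17.6 and 21.6 FPKM in FA, against 15.7, 13.8 and 12.1 FPKM in HFD, and zip-12, another bZIP gene, averaged 14.3 ± 1.05 FPKM in FA and 10.9 ± 0.842 FPKM in HFD. Neither overlapped between the groups. The others were Y43F8B.2, hsp-16.48, the fungus-induced-peptide-related gene fipr-9, F22H10.2, the immunoglobulin-domain gene oig-4, F28F9.3 and EGAP4.1, with log2 differences of 0.48 to 0.97 and no overlap. By position, zip-12 overlaps Y75B8A.63 on the same strand, and nhr-138, daf-2, mdt-15 and dgat-2, named elsewhere, also overlap a gene on theirs. zip-10 overlaps skp-1 on the other strand, and Y43F8B.2, oig-4, F28F9.3, dnj-13, pmp-4 and hsp-70 also overlap a gene there. The labels do not say whether counting used strand, so reads of these genes are less certain.

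The 10 with the lowest p among those lower in FA were mostly uncharacterised genes of low to moderate level. F42G4.6 (chromosome II, 13079378 to 13080756) had 9.30, 6.43 and 6.06 FPKM in FA, against 9.99, 17.6 and 18.9 FPKM in HFD, a log2 difference of -0.97 (95% interval -1.56 to -0.39). Y48B6A.5 had 12.3, 8.11 and 8.81 FPKM in FA, against 14.4, 15.7 and 15.8 FPKM in HFD, and C01G8.1 had 15.7, 9.53 and 11.5 FPKM in FA, against 21.1, 19.2 and 18.2 FPKM in HFD. In all 3, FA replicate 1 was the FA library closest to HFD. The same held for Y50E8A.10, Y116F11B.8, T24D1.3, ins-37, F35D2.1 and B0273.1, and in K06H6.1 FA replicate 1, at 20.8 FPKM, lay within the HFD range of 20.3 to 28.3 FPKM.

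The count of genes near the threshold moved with single libraries, most of all with FA replicate 1. Without it 902 genes had an unadjusted limma p under 0.05, 105 higher in FA (0.783% of 13412 tested) and 797 lower (5.94%), against 234 with all libraries. The 182 genes in both sets are 77.8% of the 234 and 20.2% of the 902. The count was 122 without HFD replicate 2, 152 without HFD replicate 3 and 221 to 237 without FA replicate 2, FA replicate 3 or HFD replicate 1. The balance of directions moved with single libraries as well. Genes higher in FA made up 26.9% with all libraries, 11.6% without FA replicate 1, 40.0% without HFD replicate 1, and 52% to 58.2% without any other library.

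Without FA replicate 1, 1 of 13412 genes (0.00746%) was called, Y45G12C.16 (chromosome V, 2530146 to 2531174), an uncharacterised gene. It had 0.493, 18.1 and 13.6 FPKM in FA, against 0.615, 0.696 and 1.57 FPKM in HFD. FA replicate 1 was the lowest of all 6 libraries and the other 2 FA libraries were far above the rest. The log2 difference was 1.96 with all libraries and 3.13 without FA replicate 1, where limma gave an adjusted p of 0.0177. With all 6 libraries its adjusted limma p was 0.9999. The next genes by p in that fit were all lower in FA, and none of them passed. The sperm-enriched peptide gene nspd-3 had 23.1, 4.70 and 4.62 FPKM in FA, against 12.99, 12.7 and 13.6 FPKM in HFD, and dao-4 had 110, 36.3 and 36.3 FPKM in FA, against 108, 82.8 and 76.4 FPKM in HFD. In both genes FA replicates 2 and 3 lay below every HFD library and FA replicate 1 above. The others were K06H6.1, perm-4, msrp-1, the sperm-specific family gene ssp-33, C02F5.5, F56A11.6 and C39H7.1.

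Sperm genes were low in FA replicates 2 and 3. Of 74 tested, 71 averaged lower in FA, with a median log2 difference of -0.31, and 0 were called. At an unadjusted limma p under 0.05 there was 1, lower, with all libraries (1.26% of all genes were), and without FA replicate 1 there were 50, all lower (5.94% of all genes were), where the median was -0.70. Leaving out FA replicate 3 brought the median to -0.09, the smallest of the alternatives. In 52 of the 74 genes FA replicate 1 was the highest of the 6 libraries, and in 71 the lowest was FA replicate 2 or 3. The summed level of the list was 5099, 2515 and 2016 FPKM in FA, against 3744, 3982 and 3554 FPKM in HFD. The major sperm protein gene msp-3 had 114, 59.7 and 35.8 FPKM in FA, against 85.3, 82.8 and 81.8 FPKM in HFD, so that the FA libraries lay on both sides of the HFD range. Members of the major sperm protein family are near identical, which makes each single value uncertain. Of the 50 genes at an unadjusted limma p under 0.05 without FA replicate 1, 29 were among the 30 major sperm protein genes. The other 21 were among the 44 remaining sperm genes, a division made after the values were seen. The spermatogenesis gene spe-47 had 7.55, 4.0 and 4.29 FPKM in FA, against 7.89, 6.74 and 8.69 FPKM in HFD.

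Oocyte and eggshell genes were also low in FA replicates 2 and 3. FA replicate 2 was the lowest library in 24 of the 36 tested and FA replicate 3 in 9. The highest was HFD replicate 1 in 21, and FA replicate 1 in 5. Of the 36, 33 averaged lower in FA, with a median of -0.30 (-0.48 to -0.21 over the alternatives). At an unadjusted limma p under 0.05 there were 5, all lower (1.26% of all genes were), and without FA replicate 1 there were 20, all lower (5.94% of all genes were). The eggshell proteoglycan gene cpg-1 (chromosome III, 4489359 to 4491392) had 59.3, 34.5 and 34.7 FPKM in FA, against 63.5, 57.7 and 61.7 FPKM in HFD (log2 difference -0.54, 95% interval -1.03 to -0.06). The oocyte maturation gene oma-1 (chromosome IV, 8888976 to 8890999) had 30.2, 21.1 and 26.4 FPKM in FA, against 36.02, 31.6 and 33.7 FPKM in HFD, with no overlap. The yolk receptor gene rme-2 (chromosome IV, 5470026 to 5473174) had 25.9, 14.7 and 17.3 FPKM in FA, against 31.3, 24.4 and 26.7 FPKM in HFD. The eggshell permeability barrier gene perm-4 had 87.1, 34.9 and 40.8 FPKM in FA, against 98.1, 71.1 and 89.1 FPKM in HFD. In rme-2 and perm-4, FA replicate 1 lay within the HFD range. The 6 vitellogenins averaged lower in FA, with a median of -0.53, but it was -1.37 without FA replicate 1 and 0.30 without HFD replicate 1.

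Genes listed under mitotic and meiotic germline were mostly lowest in FA replicate 2 and highest in FA replicate 3. The list also holds genes such as him-4 and mex-3, so not every member marks earlier germ cells. Of the 42 tested, FA replicate 2 was the lowest library in 34 and FA replicate 3 the highest in 27. By group 19 averaged higher and 23 lower in FA, with a median of -0.02 (-0.13 to 0.10 over the alternatives). All 42 intervals lay within a 2-fold difference, as did those of 93.3% of all genes tested. Whether this list differs from the sperm and oocyte lists was not tested. The Notch receptor gene glp-1, which maintains germline stem cells, had 11.4, 7.40 and 11.9 FPKM in FA, against 10.1, 9.57 and 11.4 FPKM in HFD. Whether the age or reproductive stage of the animals differed between the libraries was not tested, and it cannot be told apart from the other differences between them.

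**Figure D5:**
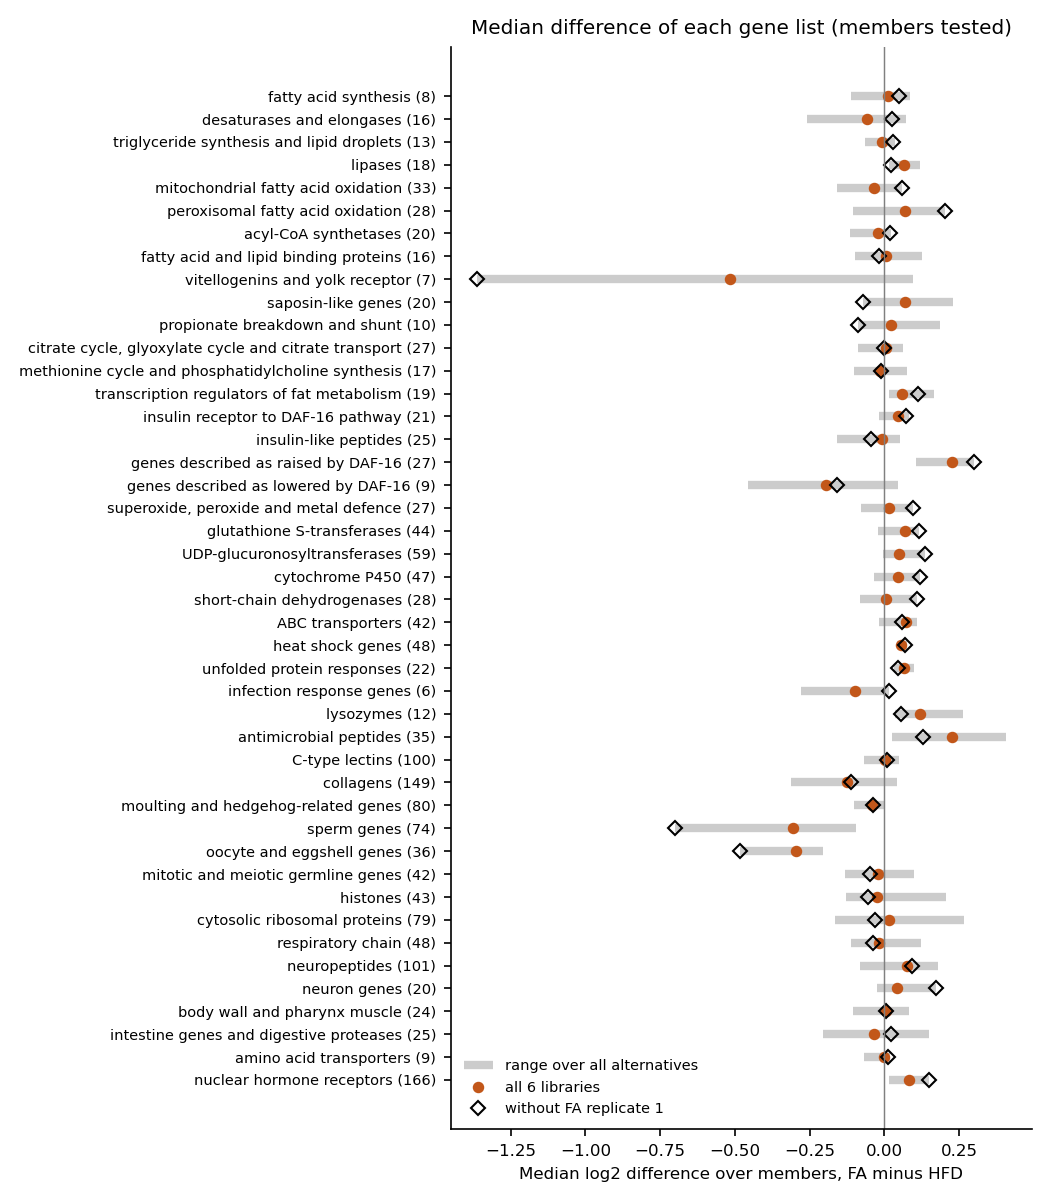
Median log2 difference (FA minus HFD) over the members of 44 gene lists with all 6 libraries (filled points), without FA replicate 1 (open diamonds) and over all alternatives (grey bars). Sperm, oocyte and yolk lists lie furthest below 0 and move further without FA replicate 1, while most lists of fat metabolism lie within 0.1 of 0.

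Cuticle genes varied mainly between libraries. Of 149 collagen genes 47 averaged higher and 102 lower in FA, with a median of -0.13, and the median was -0.31 to 0.04 over the alternatives. FA replicate 2 was the highest library in 69 of them and FA replicate 3 the lowest in 96. The collagen gene bli-2, needed for the adult cuticle, had 461, 289 and 237 FPKM in FA, against 430, 470 and 480 FPKM in HFD. The moulting gene mlt-10 had 99.9, 93.2 and 57.8 FPKM in FA, against 128, 105 and 106 FPKM in HFD, with no overlap between the groups. Its position overlaps lips-7 and T27A1.3 on the same strand, so its reads are less certain. Of 79 cytosolic ribosomal protein genes 49 averaged higher and 30 lower, with a median of 0.02. In 64 of the 79 the highest library was FA replicate 2 and in 76 the lowest was FA replicate 3.

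The lists of defence and detoxification genes differed in direction, and none of their genes passed. Over all genes tested, FA lay wholly above HFD in 1.73% and wholly below in 3.22%. Of 35 antimicrobial peptide genes 30 averaged higher, with a median of 0.23 (0.03 to 0.41 over the alternatives), and HFD replicate 3 was the lowest library in 22. FA lay wholly above HFD in 2 of the 35 and wholly below in 0. The peptide gene fipr-9 (chromosome V, 10221662 to 10222021) had 20.1, 24.4 and 16.6 FPKM in FA, against 11.3, 15.98 and 6.51 FPKM in HFD, with no overlap. Its family holds near-identical copies, so its reads are uncertain. Of 44 glutathione S-transferase genes 26 averaged higher, with a median of 0.07. FA lay wholly above HFD in 2 of the 44 and wholly below in 1. The gst-20 gene had 3.23, 2.07 and 4.14 FPKM in FA, against 1.53, 1.74 and 1.71 FPKM in HFD, with no overlap. The gene gst-4, a standard reporter of the stress factor SKN-1, had 164, 276 and 235 FPKM in FA, against 232, 264 and 336 FPKM in HFD, a log2 difference of -0.31 (95% interval -0.84 to 0.21). Among UDP-glucuronosyltransferases, enzymes that attach sugar to flavonoids and other foreign compounds, 40 of 59 averaged higher, with a median of 0.05. FA lay wholly above HFD in 2 of the 59, ugt-61 and ugt-20, and wholly below in 0. The ugt-61 gene had 6.16, 8.03 and 7.63 FPKM in FA, against 5.66, 5.06 and 5.18 FPKM in HFD. Cytochrome P450 genes had a median of 0.05, with 29 of 47 higher. The medians of the glutathione S-transferase, glucuronosyltransferase and P450 lists were below 0 in 1, 2 and 3 of the alternatives. Of 100 C-type lectin genes 50 averaged higher and 50 lower, with a median of 0.00. Of 6 infection response genes 1 averaged higher and 5 lower, with a median of -0.10. Short-chain dehydrogenase genes were 14 higher and 14 lower, and genes of superoxide, peroxide and metal defence 14 higher and 13 lower.

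Nuclear hormone receptor genes averaged higher in FA in 119 of 166 cases, with a median of 0.08 (0.02 to 0.15 over the alternatives). All 166 intervals lay within a 2-fold difference, as did those of 93.3% of all genes tested. FA replicate 3 was the highest library in 77 of them. FA lay wholly above HFD in 7 of the 166 (1.73% of all genes tested) and wholly below in 3 (3.22%). Of the 7, nhr-138 had 7.19, 7.85 and 8.30 FPKM in FA, against 6.70, 5.98 and 5.67 FPKM in HFD. Neuron, muscle and intestine lists had medians of 0.04, 0.01 and -0.03, and 0 of their genes had an unadjusted limma p under 0.05.

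At the expression filter, 271 genes had at least 1 FPKM in exactly 3 of the 6 libraries (median 1.05 FPKM) and were included, and 305 had it in exactly 2 (median 0.885 FPKM) and were not.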

How the data were processed

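The authors deposited FPKM values per gene beside names, lengths, biotypes and positions on WBcel235, the build in the submitters' processing notes. For aligner, counter and strand setting the sources used here give nothing. Libraries were made with an NEBNext Ultra II kit after a chloroform extraction of total RNA, per the labels' protocols. Each FPKM times gene length gave whole reads for 100% of the values (tolerance 0.01 of a read), so depth per library is known. Within groups the chi-square between libraries was 32.5 to 85.2 per gene, and no pair matched within sampling noise. The test was limma 3.58.1 (R 4.3.3) with trend on log2(FPKM + 1), two-sided, with Benjamini-Hochberg adjustment over 14232 genes of every biotype with at least 1 FPKM in 3 of the 6 libraries. It was also run on simulated data. Their noise was independent for each gene, without the differences that many genes of a real library share. The 3 OP libraries entered 1 alternative, as a source of spread, and nothing else. Of the 13567 genes 13566 were found in the Ensembl 115 annotation, and 3 carry an identifier as their name.

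Members and the 44 gene lists were chosen with earlier results of these data known, and lists are described by counts and medians without a test. Most genes named were drawn from a fixed set, not all of which is printed. It held the 10 lowest p and 5 largest differences in each direction averaging 5 FPKM or more in the higher group. It also held 21 genes of fat and insulin biology, the 3 lowest p of each list and the 5 most expressed. The 10 lowest p without FA replicate 1 completed it. Other genes named, such as msp-3, glp-1, hsf-1, gst-4, acox-1.1, daf-22 and the genes that separate the libraries, were chosen after their values were seen. One result is not reported here. The alternatives were other pseudocounts, filters, scalings, a spread from all 9 libraries, robust moderation, a block for the replicate number, library weights, voom on the recovered reads, and leaving out each library in turn.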

Additional observations from a re-analysis of the deposited data

How the results depend on the processing

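The count of called genes was 0 under each alternative except without FA replicate 1, where it was 1 (0 to 1 when leaving out 1 library). The count at an unadjusted limma p under 0.05 was 234, and 135 with a filter of 5 FPKM, 98 with libraries scaled to equal FPKM sums, and 122 to 902 when leaving out 1 library; it was 185 to 335 under the others. No label says what the replicate numbers mark. Deviations from the group mean of same-numbered libraries correlated at 0.36 for pair 1, -0.01 for pair 2 and 0.13 for pair 3. Among the HFD libraries, FA replicate 2 correlated best with HFD replicate 3, at 0.07, and FA replicate 3 with HFD replicate 2, at 0.195. With 3 libraries per group, these values cannot decide whether the numbers pair the samples. With the replicate number as a block 0 genes were called, the smallest adjusted limma p was 0.706 and 321 had an unadjusted p under 0.05. Of the single genes and list medians under each alternative, 1 passed the threshold (Y45G12C.16, without FA replicate 1), 7 uncalled genes changed sign by more than 1 SE (fat-5, fat-6 and dgat-2 among them), 0 calls reversed, and the other 3964 values did none of these. The sign of the median held in 11 of 44 lists. Where FA replicate 1 is left out, FA rests on the other 2 libraries. The cause of each move was not tested.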

Other observations

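The pud genes, named for proteins found at higher levels in a daf-2 mutant, were not described above and were chosen after their values were seen. Of the 6 tested, 5 averaged higher in FA, with a median log2 difference of 0.36, but it was -0.31 without FA replicate 1 and -0.29 without HFD replicate 3. Their summed level was 495, 65.6 and 212 FPKM in FA, against 259, 234 and 60.7 FPKM in HFD. FA replicate 2 and HFD replicate 3 were thus the low libraries, the same 2 in which the collagens col-2, col-37 and col-40 were highest. The gene pud-3 had 219.5, 22.7 and 70.1 FPKM in FA, against 109.5, 73.9 and 14.4 FPKM in HFD.

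The glucuronosyltransferase gene ugt-35 had 1.96, 8.67 and 59.8 FPKM in FA, against 4.04, 53.2 and 13.5 FPKM in HFD. The lectin gene clec-74 had 1.40, 17.6 and 22.4 FPKM in FA, against 1.13, 12.3 and 20.1 FPKM in HFD. In both genes replicate 1 was the lowest library of each group. F47B3.1 had 0.473, 4.54 and 7.15 FPKM in FA, against 0.164, 0.139 and 10.6 FPKM in HFD, a split that follows neither the groups nor the replicate numbers. The saposin-like gene spp-12 had 90.2, 555 and 120.5 FPKM in FA, against 88.5, 136 and 344 FPKM in HFD.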
